A study of Rattus norvegicus with 10 samples.

Results

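The xenobiotic-metabolizing enzymes described here are 10 genes: the cytochrome P450 genes Cyp1a1, Cyp1b1, Cyp2e1 and Cyp4b1, the electron donor Por, the epoxide hydrolase Ephx1, the aldehyde dehydrogenase Aldh1a1, and the glutathione transferases Gstm1, Gstm2 and Gsta4. They were chosen by symbol, and every probe set whose platform annotation gave 1 of these symbols alone was taken, which gave 10 of 14217 genes and 11 of the 31042 probe sets tested. Por has 2 probe sets and each other gene has 1. Noodle rats (n = 5) ate a diet with 30% instant noodle by weight and 26% of its energy as fat, and control rats (n = 5) ate the diet described as the same but lacking the seasonings. All animals were 13-week-old males, and feeding was paired between the diets, with no partners named, at about 60 g per kg of body weight a day, for 30 days by one label and 4 weeks by another. The tissue was white adipose tissue, with 1 array per animal. The sources used here do not give the fat depot, the rat strain, or the noodle and fat content of the control diet.

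Foreign compounds, or xenobiotics, are cleared in steps. Phase 1 enzymes, mostly cytochrome P450 monooxygenases of the endoplasmic reticulum that take electrons from the reductase encoded by Por, add or expose a reactive group. Epoxide hydrolases and aldehyde dehydrogenases then deal with reactive products, and phase 2 enzymes such as glutathione transferases attach a carrier that makes the product easier to export. The liver is the main site of this work, but fat stores many lipophilic compounds and holds its own set of these enzymes in adipocytes and in stromal, vascular and immune cells.

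The deposited values lay between 4.73 and 13.89 on what is taken as a log2 scale, and array medians lay between 6.17 and 6.18. Most of the table is flat: 91.6% of the tested probe sets had an SD of 0.01 or less over the 10 arrays, and the 2607 above it are called variable. Bright probe sets were among the flat ones, such as those of Fabp4 at 13.30 (SD 7.12e-05) and Adipoq at 12.68 (SD 9.88e-05). A flat probe set is therefore not read here as steady expression over animals or diets. The extraction text names brain, so both tissues were checked. All 18 measured adipocyte markers, but only 1 of 17 brain markers, the myelin gene Mbp, stood above a set of 41 genes of retina, lens and sperm that white fat should lack. These 41 genes ranged from 5.11 to 6.24 and all 41 were flat, and this range is used below as a description of signal without a transcript. Mean correlation with the other arrays was 0.9948 for control animal 14 and 0.9959 to 0.9969 for the other 9 arrays. The labels name no batch, slide or scan.

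Of the 10 enzymes, 7 had a mean signal above that range: Cyp1b1, Cyp4b1, Por, Ephx1, Gstm1, Gstm2 and Gsta4. Cyp1a1 at 5.59 and Aldh1a1 at 5.57 lay inside it, above 20 and 18 of the 41 genes. Cyp2e1, at 6.15, lay above 40 of the 41, and in 3 of 10 animals it exceeded all of them. A probe set's signal depends on its own probes, so these levels do not rank the enzymes by amount of mRNA, and a signal inside the range does not show that a transcript is absent.

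**Figure D1:**
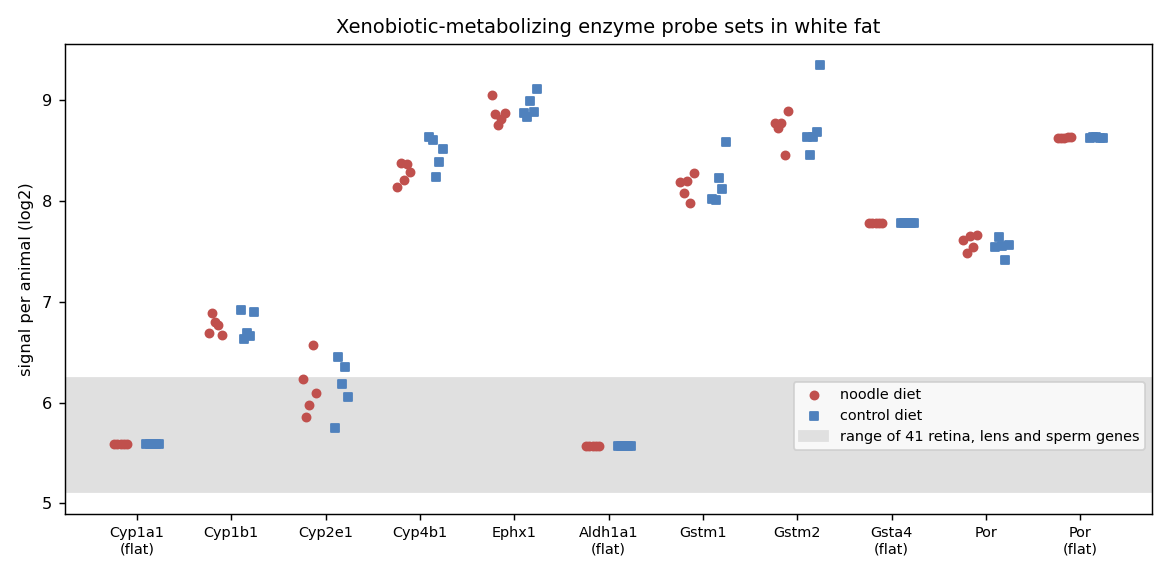
Signal of each of the 11 probe sets on the log2 scale, with 1 point per animal, noodle diet left (circles) and control diet right (squares). The grey band is the range of the 41 retina, lens and sperm genes (5.11 to 6.24), which holds Cyp1a1 and Aldh1a1 and most of the Cyp2e1 values. Gstm2 in 1 control animal, at 9.34, is the highest point.

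The 7 variable probe sets were those of Cyp1b1, Cyp2e1, Cyp4b1, Ephx1, Gstm1, Gstm2 and 1 of Por, and the 4 flat ones were those of Cyp1a1, Aldh1a1, Gsta4 and the other of Por. The flat Por probe set had an SD of 0.00422, the nearest below the limit of 0.01, and the variable one had 0.0796, the nearest above it. Among variable probe sets the spread over the 10 animals ran from that value to 0.255 for Gstm2 and 0.258 for Cyp2e1, against a median of 0.191 for all variable probe sets of the table. The lowest and the highest animal differed 1.76-fold for Cyp2e1, 1.86-fold for Gstm2 and 1.51-fold for Gstm1.

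No enzyme passed the test between the diets. At an adjusted p of 0.05 in limma, over all probe sets, 0 of the 7 variable members were called, and 0 of 31042 probe sets, or 0%, were. At an unadjusted p under 0.05, 1 of the 7 was called, that of Cyp4b1, where 8.13% of all variable probe sets were. In 0 of the 7 did the diets separate without overlap, where 0.959% of the variable probe sets did so. Of the 7, 2 had a higher and 5 a lower mean in noodle rats, with a median difference of -0.02, while 44.6% of all variable probe sets were higher and their median difference was -0.0121. Differences of flat probe sets are not read here, although that of Aldh1a1 also had an unadjusted p under 0.05, where 4.77% of all probe sets did.

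**Figure D2:**
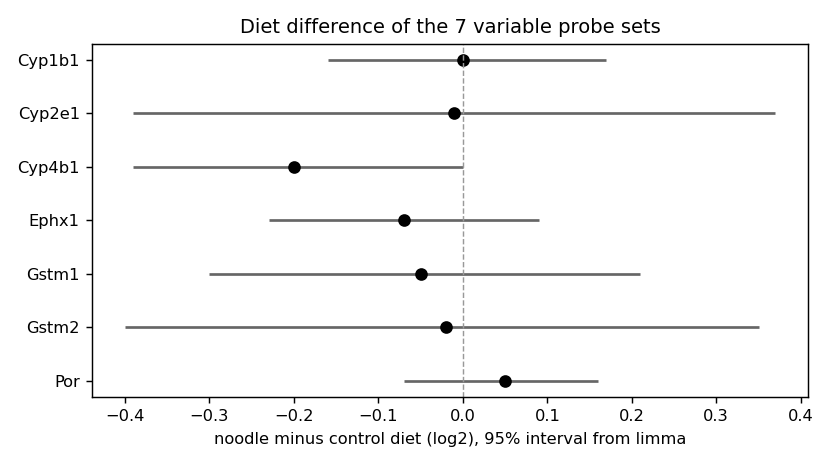
Difference between noodle and control diet on the log2 scale for the 7 variable probe sets, with the 95% interval from limma (n = 5 per diet). Cyp4b1 lies lowest, at -0.20, with an interval that ends close to 0, and the intervals of the other 6 include 0.

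Cyp4b1, a P450 found mostly outside the liver that hydroxylates fatty acids and activates some furan and arylamine toxins, had the lowest p of the 7. Its signal was 8.13, 8.37, 8.20, 8.36 and 8.28 in noodle animals 1, 4, 7, 10 and 13, against 8.63, 8.60, 8.23, 8.38 and 8.51 in control animals 2, 5, 8, 11 and 14. The diets overlapped, with noodle animals 1 and 7 below every control animal and control animals 8 and 11 within or next to the noodle range. The mean was 8.27 ± 0.10 in noodle rats and 8.47 ± 0.17 in controls (SD, n = 5 each). The difference was -0.20 ± 0.09 log2 units (SE, 95% interval -0.39 to -0.00473), or 0.871-fold, with an adjusted p of 0.993 in limma. A lower signal in bulk tissue can mean fewer cells of a type or less RNA per cell, and these cannot be told apart.

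RNA quality and cell markers were set beside this difference. The gap in log2 signal between 3-prime and 5-prime controls, averaged over Actb and Gapdh, is larger in degraded RNA, and it was 0.84 ± 0.07 in noodle rats and 0.95 ± 0.08 in controls (SD, n = 5 each, two-sided exact permutation p = 0.0476). With it as a covariate Cyp4b1 differed by -0.133. Its unadjusted p was 0.05 or more under 10 of 20 alternatives, this one among them and 6 that left out 1 animal (noodle animals 1, 7 and 13 and control animals 2, 5 and 14). Over the 10 animals Cyp4b1 and this measure had r = 0.59 (permutation p = 0.0735, 0.172 adjusted over 7 members) and rho = 0.70 (p = 0.0294, adjusted 0.103). Endothelial markers, 10 of 10 of which stood above the retina, lens and sperm range, had a summed linear signal of 3073 to 3659 in noodle rats and 3139 to 3563 in controls. The mean of the 6 variable ones followed Cyp4b1 with r = 0.55 (permutation p = 0.0983) and rho = 0.76 (p = 0.0149), with adjusted values of 0.443 and 0.267 over 56 relations of members with cell marker lists. Without the 2 animals farthest from the median of Cyp4b1, r was 0.25. Here and below, the animals at the extremes of a gene are the 2 farthest from its median, which can both lie on the same side. The part of RNA quality and of endothelial cells in the Cyp4b1 difference was not tested further.

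Cyp1a1 and Cyp1b1 encode P450s that oxidise polycyclic aromatic hydrocarbons and are classic targets of the aryl hydrocarbon receptor, Cyp1b1 being also active on oestradiol. Cyp1a1 was flat at 5.59 in every animal. Cyp1b1 stood at 6.69, 6.89, 6.80, 6.77 and 6.67 in noodle animals 1, 4, 7, 10 and 13, against 6.92, 6.63, 6.69, 6.66 and 6.90 in control animals 2, 5, 8, 11 and 14. Both diets spanned nearly the same range, with control animals 2 and 14 and noodle animal 4 at its top. The difference was 0.00 ± 0.07 (SE, 95% interval -0.16 to 0.17, adjusted p = 1 in limma).

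Of the aryl hydrocarbon receptor pathway list, 10 of 12 genes were measured, 5 of them above the retina, lens and sperm range. Of the 10, 8 were flat, where 91.6% of all tested probe sets were. The receptor gene Ahr at 5.73, its repressor gene Ahrr at 5.76 and Cyp1a2 at 5.59 were flat inside that range, and the quinone reductase gene Nqo1 was flat above it, at 7.73. At an adjusted p of 0.05, 0 of the 10 passed. The 2 variable genes were Tiparp, a receptor target that limits its activity, with 8.60 ± 0.21 in noodle rats and 8.46 ± 0.18 in controls, and the chaperone gene Hsp90ab1, with 10.77 ± 0.13 and 10.66 ± 0.11 in the same order (SD, n = 5 each). Their differences were 0.13 ± 0.12 and 0.11 ± 0.07 (SE), and with the 3-prime to 5-prime covariate they were 0.22 and 0.00199. Tiparp differed by 0.221 without noodle animal 1 and by 0.086 without control animal 8. Without noodle animal 1 its unadjusted p in limma was under 0.05, and the share of all probe sets under 0.05 there was not counted. Hsp90ab1 differed by 0.0681 without noodle animal 1.

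The upstream sequence of Cyp1b1 is shown because it holds the letters of the receptor's core element, while the gene's signal did not separate the diets. It covers 250 bases before the start in RefSeq's table (GRCr8, chr6:21094315-21094564, plus strand), written 5′ to 3′, with GCGTG on either strand in capitals.
Cyp1b1: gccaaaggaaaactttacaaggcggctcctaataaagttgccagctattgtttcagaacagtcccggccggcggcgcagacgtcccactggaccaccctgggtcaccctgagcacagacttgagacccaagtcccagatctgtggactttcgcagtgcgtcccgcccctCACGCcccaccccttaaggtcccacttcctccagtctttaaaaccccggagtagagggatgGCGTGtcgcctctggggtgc
The 2 matches begin 81 and 20 bases before the start. GCGTG on either strand occurred in the same window of 25.9% of 33469 promoters, and of the 9 members with a promoter in the table, 3 held it (Cyp1b1, Gsta4 and Por). A match is not shown to be a bound site.

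Cyp2e1 encodes the ethanol- and acetone-inducible P450, which is abundant in liver. Its signal was 6.23, 5.86, 5.98, 6.57 and 6.09 in noodle animals 1, 4, 7, 10 and 13, against 5.75, 6.45, 6.18, 6.35 and 6.05 in control animals 2, 5, 8, 11 and 14. Each diet spread over the same range, and the animals above 6.24 were noodle animal 10 and control animals 5 and 11. The difference was -0.01 ± 0.17 (SE, 95% interval -0.39 to 0.37, adjusted p = 1 in limma), so that a difference of up to about the spread between animals in either direction was not resolved. It was 0.168 with the 3-prime to 5-prime covariate and -0.118 without noodle animal 10.

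The genes whose signal over the 10 animals was most like that of Cyp2e1, among 1785 probe sets with an SD above 0.1, were Slc36a2 (r = 0.87), Aldh2 (r = 0.84) and Cbr1 (r = 0.83). Slc36a2 encodes a proton-coupled amino acid transporter, Aldh2 the mitochondrial aldehyde dehydrogenase that oxidises acetaldehyde, and Cbr1 a carbonyl reductase. Without the 2 animals at the extremes of Cyp2e1 the values were 0.87, 0.75 and 0.74 in that order. Since these genes were picked as the highest of many, no p is given. Cyp2e1 ran against Cyp1b1, with r = -0.71 (permutation p = 0.0242, 0.19 adjusted over 21 pairs) and rho = -0.75 (p = 0.0172, adjusted 0.18), and r was -0.59 without the 2 animals at the extremes of Cyp1b1, so the relation did not pass the correction. Of 10 smooth muscle and pericyte markers, 9 stood above the retina, lens and sperm range and 4 were variable, among them Cnn1 inside it at 5.84. The mean of the 4 variable ones followed Cyp1b1 with r = 0.84 (permutation p = 0.00252, 0.141 adjusted over 56 relations) and rho = 0.73 (p = 0.0196, adjusted 0.267), and r was 0.71 without the 2 extreme animals. That mean ran against Cyp2e1 with r = -0.76 (permutation p = 0.0108, adjusted 0.303) and rho = -0.66 (p = 0.0431, adjusted 0.345), and r was -0.70 without the extremes. The summed linear signal of all 10 markers was 3059 to 3349 in noodle rats and 3030 to 3580 in controls. Hepatocyte markers, only 1 of 12 above the range and 3 variable, ran the other way. Of the 3, Alb stood above the range at 9.69, while Ttr at 5.97 and Ahsg at 5.66 lay inside it. The mean of the 3 was highest in control animal 11, at 0.69. With Cyp1b1 this mean gave r = -0.67 (permutation p = 0.0217, adjusted 0.329) and rho = -0.76 (p = 0.0152, adjusted 0.267), and r was -0.36 without the extremes. With Cyp2e1 it gave r = 0.61 (permutation p = 0.0556, adjusted 0.443) and rho = 0.75 (p = 0.0173, adjusted 0.267), and r was 0.54 without the extremes. Macrophage markers gave r = -0.57 with Cyp2e1 (permutation p = 0.0864, adjusted 0.443) and rho = -0.60 (p = 0.0724, adjusted 0.421), and r was -0.84 without the extremes. Of all 56 relations of the 7 variable members with 8 marker lists, 6 had a permutation p under 0.05 by r and 7 by rho, and 0 passed the correction.

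Por encodes the NADPH-dependent reductase that hands electrons to all microsomal P450s. Its variable probe set stood at 7.61, 7.48, 7.65, 7.54 and 7.66 in noodle animals 1, 4, 7, 10 and 13, against 7.54, 7.64, 7.55, 7.41 and 7.56 in control animals 2, 5, 8, 11 and 14. The diets overlapped, with noodle animals 7 and 13 above every control animal and control animal 11 lowest. The difference was 0.05 ± 0.05 (SE, 95% interval -0.07 to 0.16, adjusted p = 0.993 in limma). The other probe set was flat, between 8.62 and 8.63, so the probe sets do not give a common value for the gene. Endothelial markers ran against the variable probe set with r = -0.71 (permutation p = 0.0235, adjusted 0.329) and rho = -0.72 (p = 0.0238, adjusted 0.267), and r was -0.71 without the extremes. Of 7 measured genes among the other electron donors, 6 stood above the retina, lens and sperm range and 3 were variable. Cytochrome b5 (Cyb5a) had 10.12 ± 0.19 in noodle rats and 9.97 ± 0.26 in controls (SD, n = 5 each), a difference of 0.15 ± 0.14. This was 0.0866 with the 3-prime to 5-prime covariate, 0.0868 once noodle animal 13 was left out, 0.0938 once control animal 2 was, and 0.0716 once control animal 11 was. The b5 reductase gene Cyb5r3 differed by 0.01 ± 0.06 and ferredoxin (Fdx1), which serves mitochondrial P450s, by 0.12 ± 0.12 (SE), or 0.0153 without control animal 14. At an adjusted p of 0.05, 0 of the 7 passed.

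Ephx1 encodes microsomal epoxide hydrolase, which turns reactive epoxides into diols. It stood at 9.05, 8.86, 8.75, 8.81 and 8.87 in noodle animals 1, 4, 7, 10 and 13, against 8.87, 8.83, 8.99, 8.88 and 9.11 in control animals 2, 5, 8, 11 and 14. Noodle animals 7 and 10 lay below every control animal, while noodle animal 1 lay above all controls but animal 14. The difference was -0.07 ± 0.07 (SE, 95% interval -0.23 to 0.09, adjusted p = 0.993 in limma), and it was -0.0272 without control animal 14 and -0.158 with the 3-prime to 5-prime covariate.

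Aldh1a1 encodes a cytosolic aldehyde dehydrogenase that makes retinoic acid from retinal, and its probe set was flat at 5.57 in all 10 animals. The retinoid list was therefore measured beside it. Of 17 measured genes 12 stood above the retina, lens and sperm range and 6 were variable, 2 of them higher and 4 lower in noodle rats, with a median difference of -0.117 against -0.0121 for all variable probe sets. At an adjusted p of 0.05, 0 of the 17 passed. At an unadjusted p, 0 were higher and 1 was lower, where 2.8% and 5.33% of the variable probe sets were.

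The gene with the unadjusted p under 0.05 was Cyp26b1, a P450 that degrades retinoic acid. It stood at 7.74, 7.90, 7.45, 7.45 and 7.31 in noodle animals 1, 4, 7, 10 and 13, against 8.56, 7.59, 8.27, 7.83 and 7.97 in control animals 2, 5, 8, 11 and 14. Noodle animals 7, 10 and 13 lay below every control animal, and the other values overlapped. The difference was -0.48 ± 0.19 (SE, adjusted p = 0.993 in limma), and -0.347 without control animal 2. Its unadjusted p was 0.05 or more under 7 of 20 alternatives, the 3-prime to 5-prime covariate and leaving out noodle animal 7, 10 or 13 or control animal 2, 8 or 14. Aldh1a2, which also makes retinoic acid, had 7.43 ± 0.26 in noodle rats and 7.85 ± 0.51 in controls (SD, n = 5 each), a difference of -0.41 ± 0.25, and -0.236 without control animal 14. Dhrs3, a retinal reductase, differed by 0.12 ± 0.06, and Rbp4, the plasma retinol carrier, was flat at 11.98.

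Mesothelial markers moved with Aldh1a2. Of 10 measured, 7 stood above the retina, lens and sperm range, all 10 were variable and lower on average in noodle rats, and their summed linear signal was 769 to 1460 in noodle rats and 738 to 2361 in controls, with the ranges overlapping. Their mean followed Aldh1a2 with r = 0.87 (permutation p = 0.00085, 0.0051 adjusted over 6 relations) and rho = 0.76 (p = 0.0152, adjusted 0.0911). Without the 2 animals farthest from the median of Aldh1a2, control animals 11 (8.20) and 14 (8.55), r was 0.62. With Cyp26b1 the values were r = -0.11 (permutation p = 0.762) and rho = -0.13 (p = 0.733). Without the 2 animals farthest from the median of Cyp26b1, r was 0.44, with the sign turned. These 6 relations were chosen after values were seen, and the part of mesothelial cells in either difference was not tested.

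Gstm1 and Gstm2 encode mu-class glutathione transferases and had the closest pattern of any pair of members. Gstm1 stood at 8.18, 8.08, 8.19, 7.98 and 8.27 in noodle animals 1, 4, 7, 10 and 13, against 8.02, 8.01, 8.22, 8.12 and 8.58 in control animals 2, 5, 8, 11 and 14. Gstm2 stood at 8.77, 8.72, 8.77, 8.45 and 8.89 in those noodle animals, against 8.63, 8.45, 8.63, 8.68 and 9.34 in those control animals. Control animal 14 was the highest of all 10 in both genes, noodle animal 13 was next, and noodle animal 10 and control animal 5 were the lowest. Their correlation was r = 0.94 (permutation p = 0.00028, 0.00588 adjusted over 21 pairs) and rho = 0.79 (p = 0.00849, adjusted 0.178). It was 0.82 over the 9 animals without control animal 14, 0.75 without the 2 animals at the extremes of Gstm1, and 0.95 with the diet means removed. Near-identical members of this family may share probes, so how far the probe sets measure separate transcripts is uncertain.

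**Figure D3:**
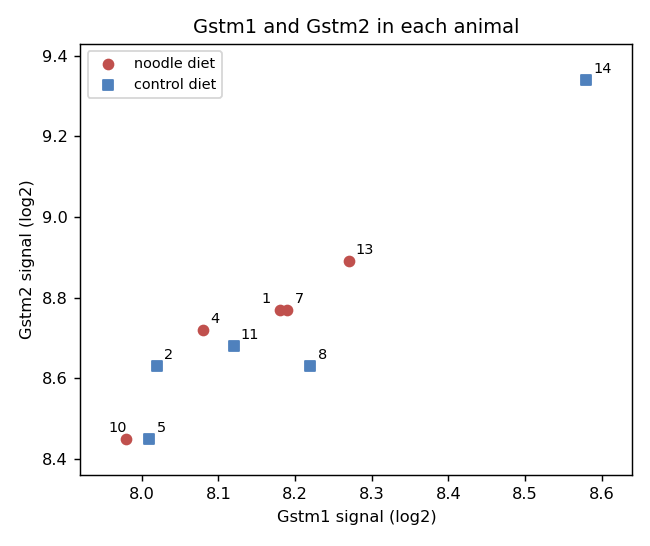
Signal of Gstm2 against Gstm1 on the log2 scale, 1 point per animal with its number, noodle diet as circles and control diet as squares. The points rise together (r = 0.94), and control animal 14 stands apart at 8.58 and 9.34.

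The diets did not differ detectably in either gene. Gstm1 differed by -0.05 ± 0.11 (SE, 95% interval -0.30 to 0.21, adjusted p = 0.997 in limma) and Gstm2 by -0.02 ± 0.17 (95% interval -0.40 to 0.35, adjusted p = 0.999). Without control animal 14 the differences were 0.0474 and 0.126, with the sign turned. With the 3-prime to 5-prime covariate they were -0.291 and -0.38, both with an unadjusted p under 0.05 and an adjusted p of 0.735 in limma. How many of all probe sets had an unadjusted p under 0.05 in that fit was not counted. The covariate itself differed between the diets, at 0.84 ± 0.07 in noodle rats and 0.95 ± 0.08 in controls (SD, n = 5 each). That fit therefore cannot fully separate the covariate from diet. Gstm2 ran against the 3-prime to 5-prime measure with r = -0.67 (permutation p = 0.0294, 0.172 adjusted over 7 members) and rho = -0.82 (p = 0.00599, adjusted 0.0419), and r was -0.79 without the 2 animals at the extremes of Gstm2. Gstm1 ran the same way, with r = -0.60 (permutation p = 0.0642, adjusted 0.172) and rho = -0.64 (p = 0.0552, adjusted 0.129), and r was -0.76 without the 2 animals at the extremes of Gstm1. The part of RNA quality in these values was not tested further.

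Some lists of cell markers also stood high in control animal 14. Its stromal and fibroblast markers lay 0.36 log2 units above their mean over all animals, with 6 of the 10 variable ones at their highest there, and its mesothelial markers lay 0.89 above, with 9 of 10 at their highest. Its red blood cell markers (3 variable) lay 0.32 above their mean, its brain markers (2 variable) 0.30, its macrophage markers 0.22 and its smooth muscle and pericyte markers 0.14. Its endothelial and adipocyte markers lay at -0.06 and -0.03, and its hepatocyte markers at -0.38. Noodle animal 4 had stromal markers 0.35 above their mean, close to control animal 14, with Gstm1 and Gstm2 at -0.49 and -0.04 SD from their means. The summed linear signal of stromal and fibroblast markers, 11 of 11 above the retina, lens and sperm range, was 20845 to 29013 in noodle rats and 21196 to 28282 in controls. Stromal markers followed Gstm2 with r = 0.65 (permutation p = 0.033) and rho = 0.64 (p = 0.054), with adjusted values of 0.37 and 0.378 over 56 relations and r = 0.31 without the 2 extreme animals. Macrophage markers followed Gstm2 with r = 0.58 (permutation p = 0.0639) and rho = 0.70 (p = 0.0311), with adjusted values of 0.443 and 0.291 and r = 0.53 without the extremes. Of 13 macrophage markers measured, all 13 stood above the retina, lens and sperm range and 11 were variable, all 11 with a higher mean in noodle rats (median difference 0.171). Their summed linear signal was 5574 to 8163 in noodle rats and 5127 to 7706 in controls. The part of these cells in the Gstm values was not tested.

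Gstm1 and Gstm2 are neighbours in GRCr8, inside a cluster whose gene order there is Gstm5, Gstm6l, Gstm7, Gstm6, Gstm3l1, Gstm3, Gstm2, Gstm1 and Gstm4. Of the 4 others measured, Gstm7 at 6.39, Gstm3 at 5.61 and Gstm4 at 7.36 were flat, and Gstm5 was variable. Gstm5 had 7.42 ± 0.13 in noodle rats and 7.45 ± 0.37 in controls (SD, n = 5 each), with control animal 14 highest at 8.04. Its correlation with Gstm2 was r = 0.75 (permutation p = 0.0313, 0.0811 adjusted over 6 relations) and rho = 0.30 (p = 0.407), and r was -0.32 without the 2 animals at the extremes of Gstm5, so the relation rests on those animals. The genes most like Gstm1 over the 10 animals were Icoslg (r = 0.96), Fgf1 (r = 0.94) and Gstm2, and those most like Gstm2 were Arhgdib (r = 0.96), Gstm1 and Calr (r = 0.94). Without control animal 14, r was 0.89 for Icoslg, 0.84 for Fgf1, 0.85 for Arhgdib and 0.91 for Calr.

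The upstream sequences of Gstm1 and Gstm2 are shown because the signals of these neighbours moved together over the animals. Each is the 250 bases before the start in RefSeq's table, written 5′ to 3′ on the gene's strand (GRCr8, minus strand, chr2:198343384-198343633 for Gstm1 and chr2:198316918-198317167 for Gstm2), with TATAAA in capitals.
Gstm1: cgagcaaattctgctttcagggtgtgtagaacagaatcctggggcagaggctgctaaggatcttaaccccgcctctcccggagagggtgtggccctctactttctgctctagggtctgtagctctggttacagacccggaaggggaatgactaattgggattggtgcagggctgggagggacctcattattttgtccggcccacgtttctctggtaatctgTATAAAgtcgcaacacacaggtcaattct
Gstm2: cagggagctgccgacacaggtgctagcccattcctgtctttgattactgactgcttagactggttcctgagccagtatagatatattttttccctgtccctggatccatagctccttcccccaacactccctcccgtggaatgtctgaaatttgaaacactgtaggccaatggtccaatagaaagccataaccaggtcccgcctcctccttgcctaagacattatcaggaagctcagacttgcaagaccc
TATAAA begins 29 bases before the start of Gstm1 and was not found in the Gstm2 window, and 12.9% of all promoters held it on either strand. The core of the antioxidant element that NRF2 binds, TGACNNNGC on either strand, was in 10.1% of all promoters and in neither of these windows. Among the 9 members only Cyp4b1 and Ephx1 held it. The 9 members have 10 windows, and Ephx1 held it in 1 of its windows and not in the other. GCGTG was in neither the Gstm1 nor the Gstm2 window. The searched motifs did not overlap in any printed sequence.

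Gsta4 encodes an alpha-class transferase that conjugates aldehydes from lipid peroxidation, and it was flat at 7.78, above the retina, lens and sperm range. Of 31 measured genes among the other phase 2 enzymes, 23 stood above that range and 11 were variable, 5 higher and 6 lower in noodle rats, with a median difference of -0.00829. At an adjusted p of 0.05, 0 of the 31 passed, and at an unadjusted p under 0.05 the variable genes Gstp1 and Inmt did, 1 in each direction (2 of 11), where 2.8% of all variable probe sets were higher and 5.33% lower. Gstp1, the pi-class transferase, had 10.07 ± 0.06 in noodle rats and 9.96 ± 0.08 in controls (SD, n = 5 each), a difference of 0.11 ± 0.04 (SE, adjusted p = 0.993 in limma). Its unadjusted p was 0.05 or more under 7 of 20 alternatives, among them the 3-prime to 5-prime covariate and leaving out noodle animal 4, 10 or 13 or control animal 5 or 8. Inmt, which methylates small amines such as tryptamine, stood at 8.32, 7.88, 7.87, 8.19 and 8.03 in noodle animals 1, 4, 7, 10 and 13, against 8.20, 8.37, 8.40, 8.34 and 8.36 in control animals 2, 5, 8, 11 and 14. All noodle animals but animal 1 lay below every control animal. The difference was -0.28 ± 0.09 (SE, adjusted p = 0.993 in limma), and its unadjusted p was 0.05 or more under 1 of 20 alternatives, the 3-prime to 5-prime covariate. Gstz1, the zeta-class transferase of tyrosine breakdown, differed by 0.11 ± 0.07 (0.0605 without control animal 2, and 0.172 with that covariate), and Nnmt, which methylates nicotinamide, was flat at 9.12.

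**Figure D4:**
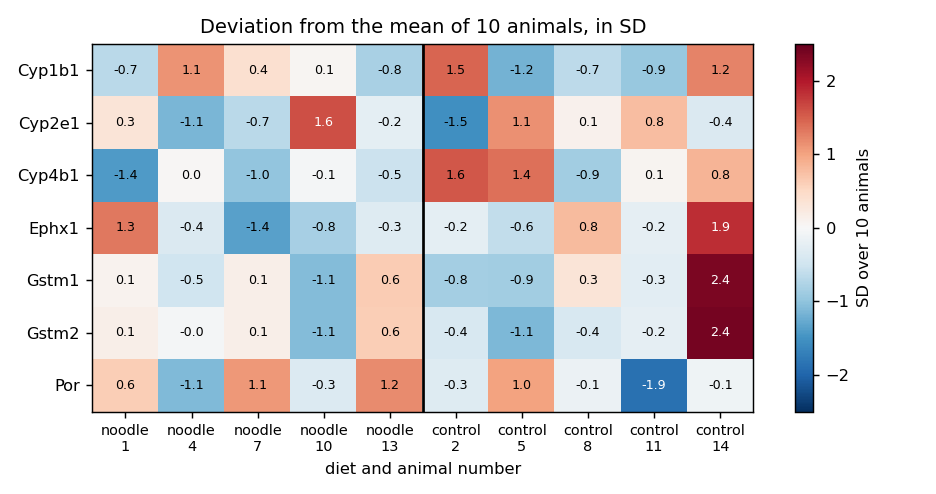
Deviation of each variable probe set from its mean over the 10 animals, in SD, with noodle animals left of the line and control animals right of it. Control animal 14 holds the highest value of Ephx1, Gstm1 and Gstm2, and no row splits cleanly between the diets.

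The 7 variable probe sets did not all rise and fall together over the animals. Of the 21 pairs among them, the correlation of Gstm1 with Gstm2 alone passed the correction, and only by Pearson's r. Over 10 animals even r = -0.71, for Cyp1b1 with Cyp2e1, did not pass, so pairs without a call may still be related. Ephx1 followed Gstm1 with r = 0.69 (permutation p = 0.0271, adjusted 0.19) and rho = 0.54 (p = 0.114, adjusted 0.715), and r was 0.36 over the 9 animals without control animal 14. Control animal 14 held the highest value of 3 of the 7 (Ephx1, Gstm1 and Gstm2) and control animal 2 that of 2 (Cyp1b1 and Cyp4b1). Noodle animal 10 had the highest value of Cyp2e1 and the lowest of Gstm1.

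The other phase 1 enzymes likewise gave no call. Of 40 measured, 26 stood above the retina, lens and sperm range and 13 were variable. Of these 13, 3 were higher and 10 lower in noodle rats, with a median difference of -0.0361. At an adjusted p of 0.05, 0 of the 40 passed. At an unadjusted p under 0.05, 0 of the 13 were called, near the share of 8.13% over all variable probe sets. Fmo2, a flavin monooxygenase, had 7.40 ± 0.35 in noodle rats and 7.75 ± 0.36 in controls, and the carbonyl reductase gene Cbr3 had 9.65 ± 0.13 and 9.88 ± 0.27 in the same order (SD, n = 5 each). Their differences were -0.36 ± 0.22 and -0.22 ± 0.13 (SE), that of Fmo2 being -0.227 without noodle animal 7. Fmo1 differed by -0.02 ± 0.13 and the aldehyde dehydrogenase gene Aldh9a1 by -0.14 ± 0.12, which was -0.055 without control animal 14.

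Among the receptors and regulators that control these enzymes in other tissues, 8 of 8 genes were flat, where 91.6% of all tested probe sets were. Of the 8, 4 stood above the retina, lens and sperm range. Of 10 measured transporters of drugs and conjugates, 6 stood above that range and 3 were variable. The organic cation transporter gene Slc22a3 differed by 0.16 ± 0.29, with an SD of 0.16 in noodle rats and 0.66 in controls, the prostaglandin transporter gene Slco2a1 by -0.05 ± 0.08, and Slco2b1 by 0.02 ± 0.17. Of 12 measured NRF2 and glutathione genes, 11 stood above the range and 6 were variable, 5 higher and 1 lower, with a median difference of 0.0277. Hmox1, the heme oxygenase, differed by 0.16 ± 0.11 (0.0948 without control animal 5), the pentose phosphate enzyme gene Tkt by 0.10 ± 0.16, and Gclm, a subunit of the enzyme that starts glutathione synthesis, by -0.04 ± 0.03. Without single animals Tkt lay between 0.0263 (noodle animal 1 left out) and 0.194 (control animal 5 left out), and leaving out control animal 5 or noodle animal 1 gave -0.0141 and -0.0232 for Gclm, in that order. At an adjusted p of 0.05, 0 genes of these 3 lists passed. At an unadjusted p under 0.05, 0 of their variable genes were called, near the share of 8.13% over all variable probe sets.

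**Figure D5:**
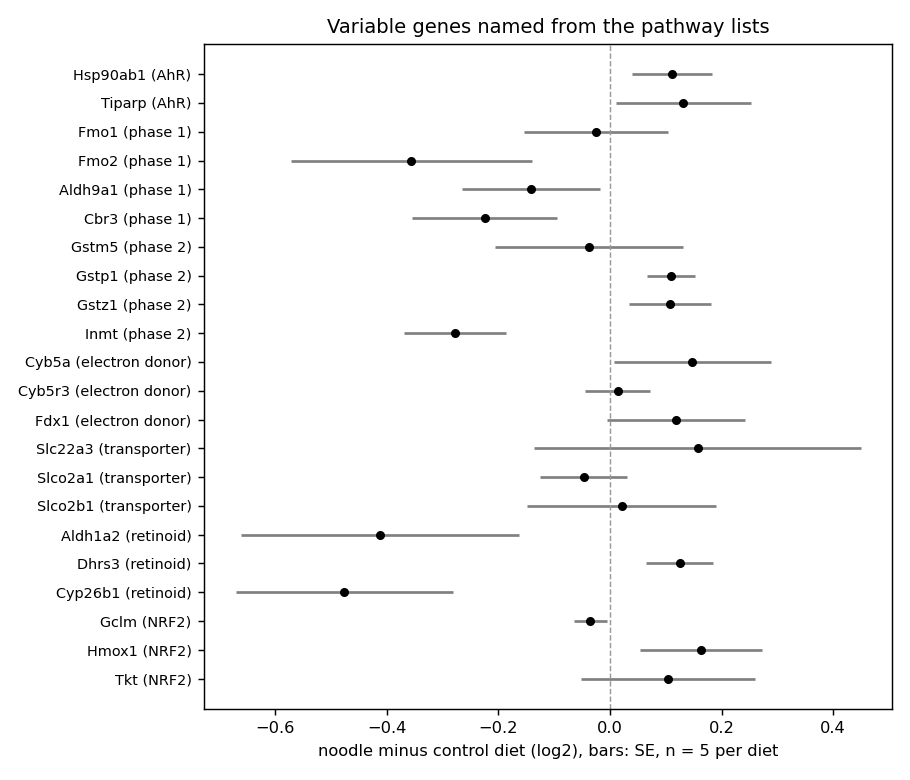
Difference between noodle and control diet on the log2 scale for the 22 variable genes named from the pathway lists, with SE (n = 5 per diet) and the list of each gene in brackets. Cyp26b1, at -0.48, and Aldh1a2, at -0.41, lie lowest, and none passed at an adjusted p of 0.05.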

How the data were processed

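RNA of white adipose tissue from 10 rats was measured on 1 array per animal. The values were used as the authors deposited them, and their span was read as a log2 scale. How the authors corrected, summarised and normalized the arrays, which logarithm they took, and why most probe sets are flat is not stated in the labels. The platform annotation gave 1 symbol to 20826 of the tested probe sets, and 57 control probe sets were left out. Noodle minus control was tested by moderated linear models (limma 3.58.1, R 4.3.3, two-sided) over all 31042 probe sets, with Benjamini-Hochberg adjustment and a threshold of 0.05. The number of arrays limits the precision, and the labels give each animal as 1 sample.

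Correlations over animals used 100000 permutations (two-sided), and array measures an exact permutation test over 252 assignments, whose smallest p is 0.00794. The probe set with the highest mean stood for a gene outside the members. Named were all members, up to 3 variable genes with the smallest p from each of 8 pathway lists, 11 genes listed by name (1 of them, Aldh1a7, not measured) and, for the 3 members with the largest SD, the 3 most similar genes. The members and lists were chosen with earlier results of these data known. Alternatives were quantile normalization, centring, filters on dim probe sets (20% and 50%), a floor, another variance prior, array weights, 2 covariates, variable probe sets only, another choice of the Por probe set, and leaving out each animal. Correlations for Por used its variable probe set, a choice made after values were seen. Correlations and deviations of a cell marker list used the mean of its variable genes, and summed signals used all its measured genes. The fit was tested on simulated data. Promoter sequences are RefSeq's (GRCr8), and 9 of the 10 members matched.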

Additional observations from a re-analysis of the deposited data

Results flagged for a closer look

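In 3 of 64 groups of 5 animals examined, the gap between an extreme animal and its nearest neighbour took up most of the group's range, and about 3.2 such groups (1 in 20) would arise by chance. Gstm2 in control animal 14 stood at 9.34, against 8.45 to 8.68 in the other controls. Noodle animal 4 had 8.56 for Gstz1, while the remaining noodle rats had 8.69 to 8.73. Slco2b1, an organic anion transporter gene, had 8.98 in noodle animal 4 and 8.44 to 8.58 in the remaining noodle rats.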

How the results depend on the processing

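No probe set passed under any alternative but the one without control animal 14, so the number past the threshold was 0 to 1 when single animals were left out. Of 30 gene differences, 18 kept their sign under all alternatives run, and the lowest adjusted p of any of them was 0.36. With the 3-prime to 5-prime covariate the sign turned for Cyp1b1 (-0.0375), Cyp2e1 (0.168), the flat Por probe set (0.00225), Cyb5r3 (-0.0434), Slco2b1 (-0.11) and Hmox1 (-0.0414). With array weights it turned for Cyp2e1 (0.0708), Fmo1 (0.0778) and Gstm5 (0.0523), with the animal number as covariate for Cyp2e1 (0.00293), Gstm2 (0.00374), Fmo1 (0.00694) and Gstm5 (0.00095), and with quantile normalization for the flat Por probe set (0.00202). Por by its flat probe set differed by -0.00189, by its variable one by 0.0458 and by the mean of both by 0.0219. When single animals were left out, the sign turned for Cyp1b1 (-0.0285 to 0.0446), Cyp2e1 (-0.118 to 0.06), Gstm1 (-0.0934 to 0.0474), Gstm2 (-0.0982 to 0.126), the flat Por probe set (-0.00348 to 0.000196), Fmo1 (-0.105 to 0.0662), Gstm5 (-0.131 to 0.11), Cyb5r3 (-0.0129 to 0.0559), Slc22a3 (-0.0144 to 0.348), Slco2a1 (-0.0878 to 0.00913) and Slco2b1 (-0.0729 to 0.15). The causes were not tested. Cyp4b1 lay between -0.26 and -0.159 without single animals, and its unadjusted p in limma reached 0.103 without control animal 2. With the 3-prime to 5-prime covariate that p was 0.265. No paired analysis was possible because no animal number occurs under both diets and partners in the paired feeding are not named in the labels. Cyp2e1 was left out by the filter on the dimmest 50% of probe sets, and signals inside the retina, lens and sperm range limit what can be said of Cyp1a1, Cyp2e1 and Aldh1a1.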
